A study of Rattus norvegicus with 49 samples.

Results

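The proteasome genes comprised 43 of the 15154 gene symbols measured in rat thyroid, namely every gene whose symbol starts with Psma, Psmb, Psmc, Psmd or Psme, other than Psmb11. Of the 30367 probes on each array, 17998 were paired with a symbol through their RefSeq accession, and 47 of these belonged to the 43 genes. The brightest probe over the 49 arrays stood for each gene, which mattered for Psma8 with 3 probes and for Psmd9 and Psme4 with 2 probes each. No probe was matched to Psmd11, a non-ATPase subunit of the regulatory particle, so the set lacks it. The samples were thyroid tissue of single male Sprague Dawley rats on one-colour microarrays, in 9 groups injected with 131I and 4 untreated groups. Young rats were injected at 5 weeks of age with 50 kBq and killed after 3, 6 or 9 months, or with 0.5, 5 or 500 kBq and killed after 9 months. Adult rats were injected at 17 weeks with 50 kBq and killed after 3, 6 or 9 months. Untreated controls were 4, 7, 10 or 13 months old, so that each injected group had controls of its own age. The 5 kBq group and the untreated rats of 7 and 13 months held 3 arrays, and every other group held 4. The controls of 10 months served 5 comparisons and the controls of 7 months served 2, so these comparisons share control samples. P-values rest on the spread between single rats within groups. For the limma tests this spread was pooled over all 13 groups, so arrays outside a comparison also enter its p-value. The exact permutation tests used only the groups compared.

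The proteasome degrades proteins that carry ubiquitin chains. Its 20S core is a stack of rings built from alpha subunits (Psma1 to Psma7) and beta subunits (Psmb1 to Psmb7), and the cutting sites sit on Psmb5, Psmb6 and Psmb7. Interferons induce the alternative catalytic subunits Psmb8, Psmb9 and Psmb10, which take the places of Psmb5, Psmb6 and Psmb7 in newly built cores and make the immunoproteasome, whose peptides feed antigen presentation on MHC class I. The 19S regulatory particle recognises ubiquitin, unfolds the substrate with the ATPases Psmc1 to Psmc6 and removes ubiquitin with Psmd14, while Psme1 and Psme2 form an interferon-induced activator cap. In muscle, the proteasome is known for breaking down myofibrillar protein.

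By these roles the genes fell into 7 alpha subunits, 4 structural beta subunits, 3 constitutive catalytic subunits, 3 immunoproteasome subunits, 6 ATPases and 10 non-ATPases of the 19S particle, 3 assembly factors of it (Psmd5, Psmd9 and Psmd10) and 4 activator genes (Psme1 to Psme4). Psma8 encodes the alpha subunit of the testis, and Psmc3ip and Psme3ip1 encode no subunit, chaperone or activator of the proteasome. The alpha subunits, structural beta subunits and constitutive catalytic subunits are together called the 14 constitutive 20S genes.

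Promoters are shown for the 3 inducible catalytic subunits and for Psmb6, the constitutive catalytic subunit that passed a test below. RefSeq promoters of build GRCr8 were at hand for 39 of the 43 genes. Each run is the 250 bases before the start, read 5′ to 3′ on the strand of the gene, and capitals mark the motif matches found. Psmb8 lies at chr20:4657032-4657281 on the minus strand, Psmb9 at chr20:4668750-4668999 on the plus strand, Psmb10 at chr19:50743293-50743542 on the minus strand and Psmb6 at chr10:55737638-55737887 on the plus strand.
Psmb8: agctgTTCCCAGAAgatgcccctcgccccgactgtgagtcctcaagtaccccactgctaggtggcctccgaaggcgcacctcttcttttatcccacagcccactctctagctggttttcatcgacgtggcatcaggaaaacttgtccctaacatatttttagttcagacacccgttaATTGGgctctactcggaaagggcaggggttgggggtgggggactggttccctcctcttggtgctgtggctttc
Psmb9: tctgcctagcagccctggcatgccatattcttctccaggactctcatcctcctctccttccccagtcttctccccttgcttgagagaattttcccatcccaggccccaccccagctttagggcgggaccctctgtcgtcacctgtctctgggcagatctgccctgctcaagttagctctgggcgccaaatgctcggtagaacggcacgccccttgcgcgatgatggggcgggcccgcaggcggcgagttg
Psmb10: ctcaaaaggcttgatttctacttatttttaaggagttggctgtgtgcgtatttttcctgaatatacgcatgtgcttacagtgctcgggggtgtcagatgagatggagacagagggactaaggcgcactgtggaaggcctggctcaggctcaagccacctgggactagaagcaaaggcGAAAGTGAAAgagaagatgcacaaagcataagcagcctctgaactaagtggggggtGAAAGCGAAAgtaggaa
Psmb6: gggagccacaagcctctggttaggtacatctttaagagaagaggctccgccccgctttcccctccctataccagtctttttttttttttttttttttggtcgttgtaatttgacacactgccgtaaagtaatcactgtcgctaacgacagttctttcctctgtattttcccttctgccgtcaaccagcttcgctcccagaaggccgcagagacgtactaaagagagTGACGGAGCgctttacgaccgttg

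Motifs of 5 kinds were searched on both strands, with matches of different motifs free to overlap: GAAANNGAAA, the core of the interferon-stimulated response element, TTCNNNGAA, the gamma-activated site, GGGNNTTTCC, an NF-kappaB-like site, TGACNNNGC or TGAGNNNGC, the core of the antioxidant response element that regulates several proteasome genes, and CCAAT. Psmb10 held GAAANNGAAA at both capital runs, and this motif was found in 5 of the 39 promoters (12.8%; Psma4, Psmb3, Psmb10, Psmd7 and Psme2) against 3.41% of the 33469 promoters in the table. The capitals of Psmb8 mark TTCNNNGAA and CCAAT on the opposite strand. TTCNNNGAA was found in 4 of the 39 promoters (10.3%) against 7.67% of all. None of the searched motifs was found in the window of Psmb9. The capitals of Psmb6 mark TGACNNNGC, and this motif with its variant was found in 14 of the 39 promoters (35.9%) against 22.8% of all. CCAAT was found in 20 of the 39 (51.3%), including 9 of 13 constitutive 20S promoters (69.2%), against 34% of all, and GGGNNTTTCC in Psmd2 alone (2.56%) against 1.3% of all. These are descriptions of the letters in the windows.

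Signals are given as log2 of the background-subtracted spot signal minus the 75th percentile of the array, so a value of 0 lies at that percentile. Levels of different probes are not compared with each other. Of the 49 arrays, 3 stood apart. Replicate 2 of the young rats 3 months after 50 kBq had 42.9% of its spots well above background, where the other arrays had 69.0% to 82.4%. Replicate 3 of the same group and replicate 2 of the controls of 7 months had thyroglobulin at 0.14 and -0.69, more than 4 log2 units below the median of the arrays, beside skeletal muscle actin Acta1 at 7.67 and 7.88. All 3 were kept in the values below, and counts and medians that differ without them are also given for the other 46 arrays. The thyroids also held other tissue, as the mean log2 signal of 10 skeletal muscle genes lay between -2.25 and 8.94 over the arrays. In bulk tissue, fewer cells of a type and less RNA per cell cannot be told apart.

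The proteasome genes were steadily detected, and 40 of the 43 were well above background on every array. The exceptions were Psma8, the testis subunit, on 46 arrays, Psmc3ip on 48 and Psmd5 on 48, and all 43 entered the test. Psma8 ranged from -8.17 to -3.23 over the 49 arrays (median -4.50), Psmc3ip from -2.71 to -0.81 and Psmd5 from -4.07 to -0.87. The spread of most of the 43 genes between rats of a group was small. With the 46 arrays, the median SD within groups was 0.20 log2 units over the 43 genes and 0.18 over the 14 constitutive 20S genes. It was 0.39 over all 25284 probes tested, which needed to be well above background on 3 arrays only. The sets were not matched for signal level, and Psma8 had an SD of 0.55. The 3 immunoproteasome genes had a median SD of 0.39, close to that of all probes. The least variable genes over the 49 arrays were Psmb2 (SD 0.12), Psmd10 (SD 0.12) and Psmb3 (SD 0.16), while Psmb9 (SD 0.68), Psmb8 (SD 0.47) and Psmb7 (SD 0.45) were the most variable of those detected throughout.

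**Figure D1:**
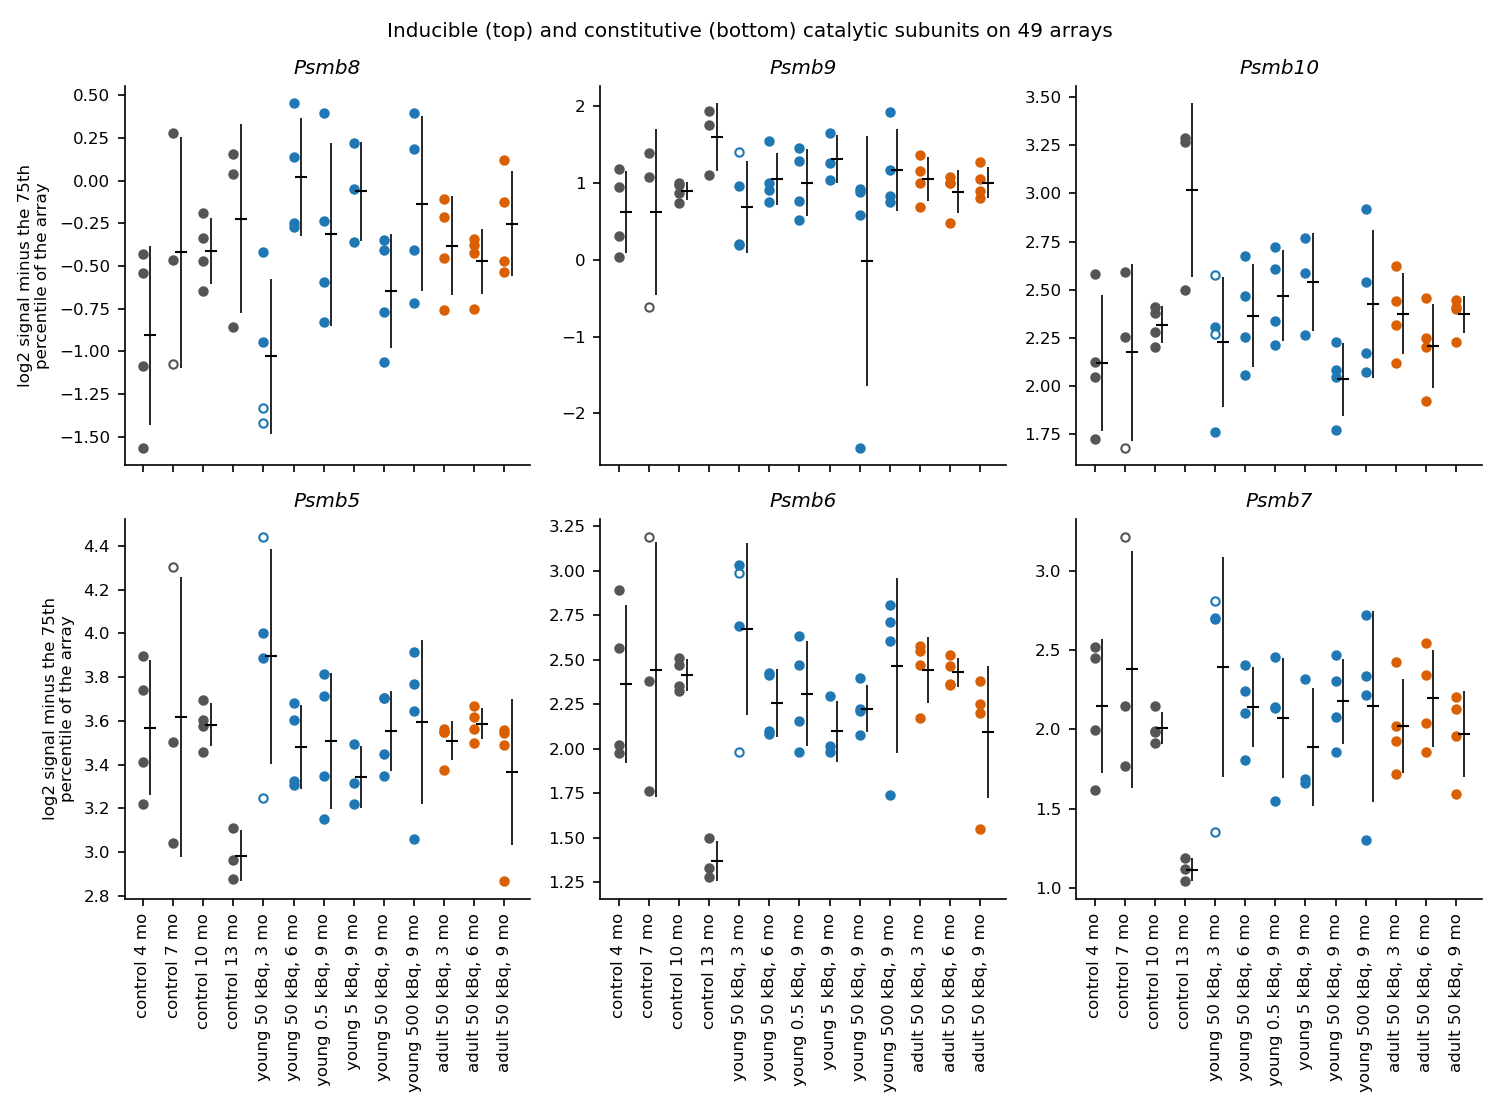
Log2 signal minus the 75th percentile of the array for the inducible subunits Psmb8, Psmb9 and Psmb10 (top) and the constitutive subunits whose places they take (bottom), with 1 point for each array, bars for the mean and SD of a group and open points for the 3 arrays that stood apart. The controls of 13 months hold the 3 lowest values of Psmb6 and Psmb7 among the 49 arrays, and 2 of them hold the 2 highest values of Psmb10.

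Within groups, the inducible subunits varied together and against their constitutive counterparts. After the group means were subtracted, Psmb8 and Psmb10 had a Pearson r of 0.68 and a Spearman rho of 0.65 over 49 arrays (permutation p = 0.00014 for each, adjusted p = 0.00045 and 0.0003). Psmb8 and Psmb9 had r = 0.56 and rho = 0.69 (permutation p = 0.00022 and 6e-05, adjusted p = 0.000493 and 0.00015), and Psmb9 and Psmb10 had r = 0.56 and rho = 0.71 (permutation p = 0.00027 and 2e-05, adjusted p = 0.0005 and 7.5e-05). The 3 relations with the replaced subunits were all negative. Psmb8 and Psmb5 had r = -0.52 and rho = -0.50 (permutation p = 0.00711 and 0.00431, adjusted p = 0.00889 and 0.00462). Psmb9 and Psmb6 had r = -0.58 and rho = -0.71 (permutation p = 3e-05 and 2e-05, adjusted p = 0.0002 and 7.5e-05). Psmb10 and Psmb7 had r = -0.64 and rho = -0.55 (permutation p = 0.00015 and 0.00054, adjusted p = 0.00045 and 0.000736). The p-values are two-sided, come from 100000 permutations within groups and are adjusted over a family of 15 relations. Without the 2 arrays farthest from the median of the first gene, r was 0.50 for Psmb8 with Psmb9, 0.63 for Psmb8 with Psmb10, 0.72 for Psmb9 with Psmb10, -0.46 for Psmb8 with Psmb5, -0.70 for Psmb9 with Psmb6 and -0.64 for Psmb10 with Psmb7. With 46 arrays, r was 0.57 for Psmb8 with Psmb9, 0.78 for Psmb8 with Psmb10 and 0.48 for Psmb9 with Psmb10. It was then -0.59 for Psmb8 with Psmb5, -0.44 for Psmb9 with Psmb6 and -0.55 for Psmb10 with Psmb7. Within the 3 scan dates (24, 14 and 11 arrays), r had the same sign in each for all 6 relations, with the weakest value at 0.28 for Psmb9 with Psmb10 on the first date.

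The other 9 relations set each inducible subunit against the mean of a gene list. With 17 interferon-induced genes, r was 0.68 for Psmb8 (rho 0.67, permutation p = 1e-05 for both, the smallest they can give), 0.43 for Psmb9 (rho 0.56, permutation p = 0.0003 and 0.00018) and 0.51 for Psmb10 (rho 0.51, permutation p = 0.00405 and 0.00258). With 12 lymphocyte genes, r was 0.43 for Psmb9 (rho 0.62, permutation p = 0.00023 and 2e-05) and 0.51 for Psmb10 (rho 0.54, permutation p = 0.00171 and 0.00074). Psmb8 had r = 0.21 with the lymphocyte genes (rho 0.42, permutation p = 0.273 and 0.0133), and r = 0.56 without the 3 arrays that stood apart (adjusted p = 0.00266 by permutation). With 12 follicular thyrocyte genes, r was 0.49 for Psmb8 (rho 0.61, permutation p = 0.0123 and 0.00022), 0.54 for Psmb9 (rho 0.65, permutation p = 4e-05 and 5e-05) and 0.48 for Psmb10 (rho 0.62, permutation p = 0.025 and 0.00016). Except for Psmb8 with the lymphocyte genes by Pearson, the adjusted p by permutation lay between 7.5e-05 and 0.0268. Without the 2 farthest arrays, these 9 values of r lay between 0.19, for Psmb8 with the lymphocyte genes, and 0.70. With 46 arrays the 9 values lay between 0.37, for Psmb9 with the lymphocyte genes, and 0.69, for Psmb8 with the interferon-induced genes. Within scan dates they lay between -0.21, for Psmb8 with the lymphocyte genes on the second date, and 0.85. The interferon, lymphocyte and thyrocyte lists were all positively related to the inducible subunits, and which of them the subunits follow was not tested.

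The constitutive genes varied along with the muscle signal of the sample and the inducible genes went the other way. Over the 46 arrays and after subtraction of group means, Pearson's r with the mean of the skeletal muscle genes was positive for 12 of the 14 constitutive 20S genes (median 0.41), for all 6 ATPases (median 0.60) and for all 10 non-ATPases of the 19S particle (median 0.56). It was positive for none of the 3 immunoproteasome genes (median -0.24) and for 44.3% of all probes (median -0.05). The 19S genes also followed one another, with a median r of 0.73 over the 15 pairs of ATPases and 0.77 over the 45 pairs of non-ATPases. Pairs of a constitutive 20S gene with a 19S gene had a median r of 0.54, and pairs of an immunoproteasome gene with a constitutive 20S gene a median of -0.36. Psme1 and Psme2, the interferon-induced activator, had a median r of 0.40 with the inducible subunits. These values are descriptions over arrays that share groups, and no test was run on them.

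**Figure D2:**
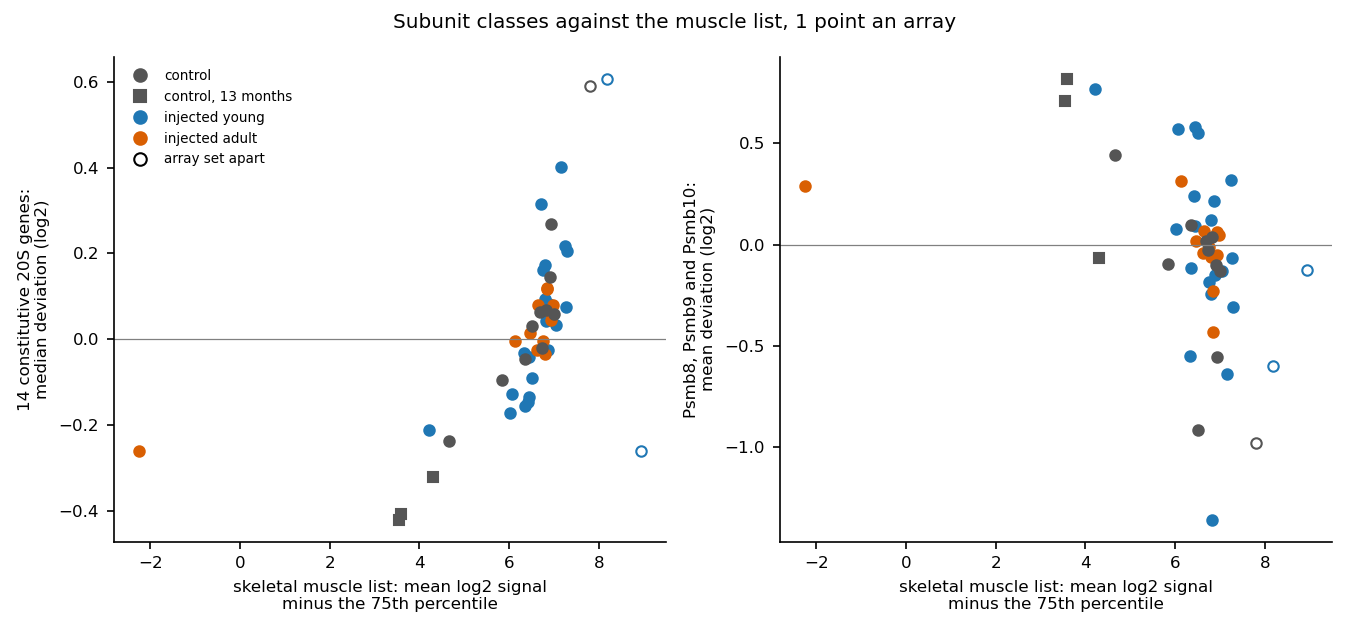
Each point is 1 array, placed by its mean log2 signal of the skeletal muscle genes (x axis) and by the deviation from the mean over arrays (y axis, log2) of the 14 constitutive 20S genes, taken as their median (left), or of Psmb8, Psmb9 and Psmb10, taken as their mean (right). The 3 controls of 13 months (squares) lie lowest on the left, at -0.42, -0.41 and -0.32, with muscle means of 3.54, 3.59 and 4.31.

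Only between untreated rats of 13 and 4 months were any proteasome genes called with 49 arrays, and many other probes changed there too. The core and 19S genes lay lower and the inducible subunits higher in the older rats. Limma called 4 of the 43 genes with a fold change above 1.5 at an adjusted p below 0.01, of which Psmd14, Psma1 and Psmb6 fell and Psmb10 rose, while 5.15% of all probes were called. The median log2 change was -0.39 over the 14 constitutive 20S genes, with 3 of them above 0, and -0.29 over the 43 genes, against 0.19 over all probes. An adjusted p below 0.05 was found for 10 of the 43 genes and 19% of all probes. An unadjusted p below 0.05 was found for 16 of the 43 genes and 34% of all probes. Both counts lay near the share of all probes. With 46 arrays the counts were 23 genes (39.6% of all probes) and 29 genes (48.6%). With 49 arrays, those at an adjusted p below 0.05 beside the 4 called genes were Psmb1 (log2 change -0.50), Psmb7 (-1.03), Psmd12 (-0.92), Psmd13 (-0.71), Psmd6 (-0.56) and Psmd9 (0.51). In the alpha ring 1 of 7 genes was called, in the constitutive catalytic subunits 1 of 3, in the immunoproteasome subunits 1 of 3, in the non-ATPases 1 of 10 and in the structural beta subunits, ATPases, assembly factors and activators 0 of 4, 6, 3 and 4.

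Psmb6, which carries the caspase-like cutting site, was at 1.28, 1.496 and 1.33 in the controls of 13 months and at 2.56, 2.02, 1.98 and 2.89 in those of 4 months. The groups did not overlap, and Psmb6 fell by 1.00 on the log2 scale (SE 0.26, limma adjusted p = 0.00985, exact permutation p = 0.0286). Psma1, a subunit of the alpha ring, was at 1.88, 1.89 and 2.34 against 3.08, 2.57, 2.70 and 3.05. All older rats again lay below all younger ones, with a log2 change of -0.81 (SE 0.17, limma adjusted p = 0.00231, exact permutation p = 0.0286). Psmd14, the deubiquitinase of the 19S particle, was at -0.74, -0.94 and -0.62 against 0.42, -0.27, -0.08 and 0.25. Here too the groups were apart, with a log2 change of -0.85 (SE 0.17, limma adjusted p = 0.00202, exact permutation p = 0.0286). The exact tests are two-sided, and 0.0286 is the smallest p that 3 arrays against 4, or 4 against 4, can give.

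Psmb7, with the trypsin-like site, was at 1.12, 1.19 and 1.04 in the controls of 13 months and at 2.45, 2.00, 1.62 and 2.52 in those of 4 months. The groups did not overlap, but the limma adjusted p of 0.0211 missed the threshold with 49 arrays (log2 change -1.03, SE 0.31), whereas it was 0.0019 with 46 arrays. Psmb5, with the chymotrypsin-like site, was at 2.88, 3.11 and 2.96 against 3.74, 3.22, 3.41 and 3.90, which also left no overlap (log2 change -0.58, SE 0.23, limma adjusted p = 0.0739). Psmd12, a scaffold subunit of the 19S lid, was at 2.41, 2.43 and 2.59 against 3.69, 2.98, 3.04 and 3.86 (log2 change -0.92, SE 0.28, limma adjusted p = 0.0220). In all, 16 genes lay below the range of the controls of 4 months, where 12.8% of all probes did, and only Psmd9 lay above it, where 21.5% of all probes did. Against all 46 other arrays of the series, a comparison chosen after the values were seen, the controls of 13 months held the 3 lowest values for 6 of the 43 genes (Psma1, Psmb1, Psmb6, Psmb7, Psmd12 and Psmd14), as for 1.59% of all probes, and the 3 highest for none of them, as for 2.2% of all probes.

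The inducible subunits had the opposite sign. Psmb10 was at 3.27, 3.29 and 2.50 in the controls of 13 months and at 1.73, 2.12, 2.58 and 2.05 in those of 4 months. Of the older rats, 2 lay above all younger ones and 1 lay inside their range, and Psmb10 rose by 0.90 (SE 0.23, limma adjusted p = 0.00747, exact permutation p = 0.0857). Psmb9 was at 1.75, 1.94 and 1.10 against 0.03, 0.96, 1.19 and 0.32 (log2 change 0.98, SE 0.49, limma adjusted p = 0.152). Psmb8 was at 0.04, 0.15 and -0.86 against -1.57, -0.43, -0.54 and -1.08 (log2 change 0.68, SE 0.32, limma adjusted p = 0.124). For all 3 genes it was the same rat, replicate 3, that lay inside the range of the younger controls. The activator genes gave log2 changes of 0.38 for Psme1 (SE 0.20, limma adjusted p = 0.185) and 0.31 for Psme2 (SE 0.16, limma adjusted p = 0.178). Among the constitutive alpha subunits, Psma4 differed in sign from the others, at 3.54, 3.50 and 2.71 against 2.76, 2.81, 2.76 and 2.89 (log2 change 0.44, SE 0.26, limma adjusted p = 0.224), with replicate 3 again apart from the other older rats.

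**Figure D3:**
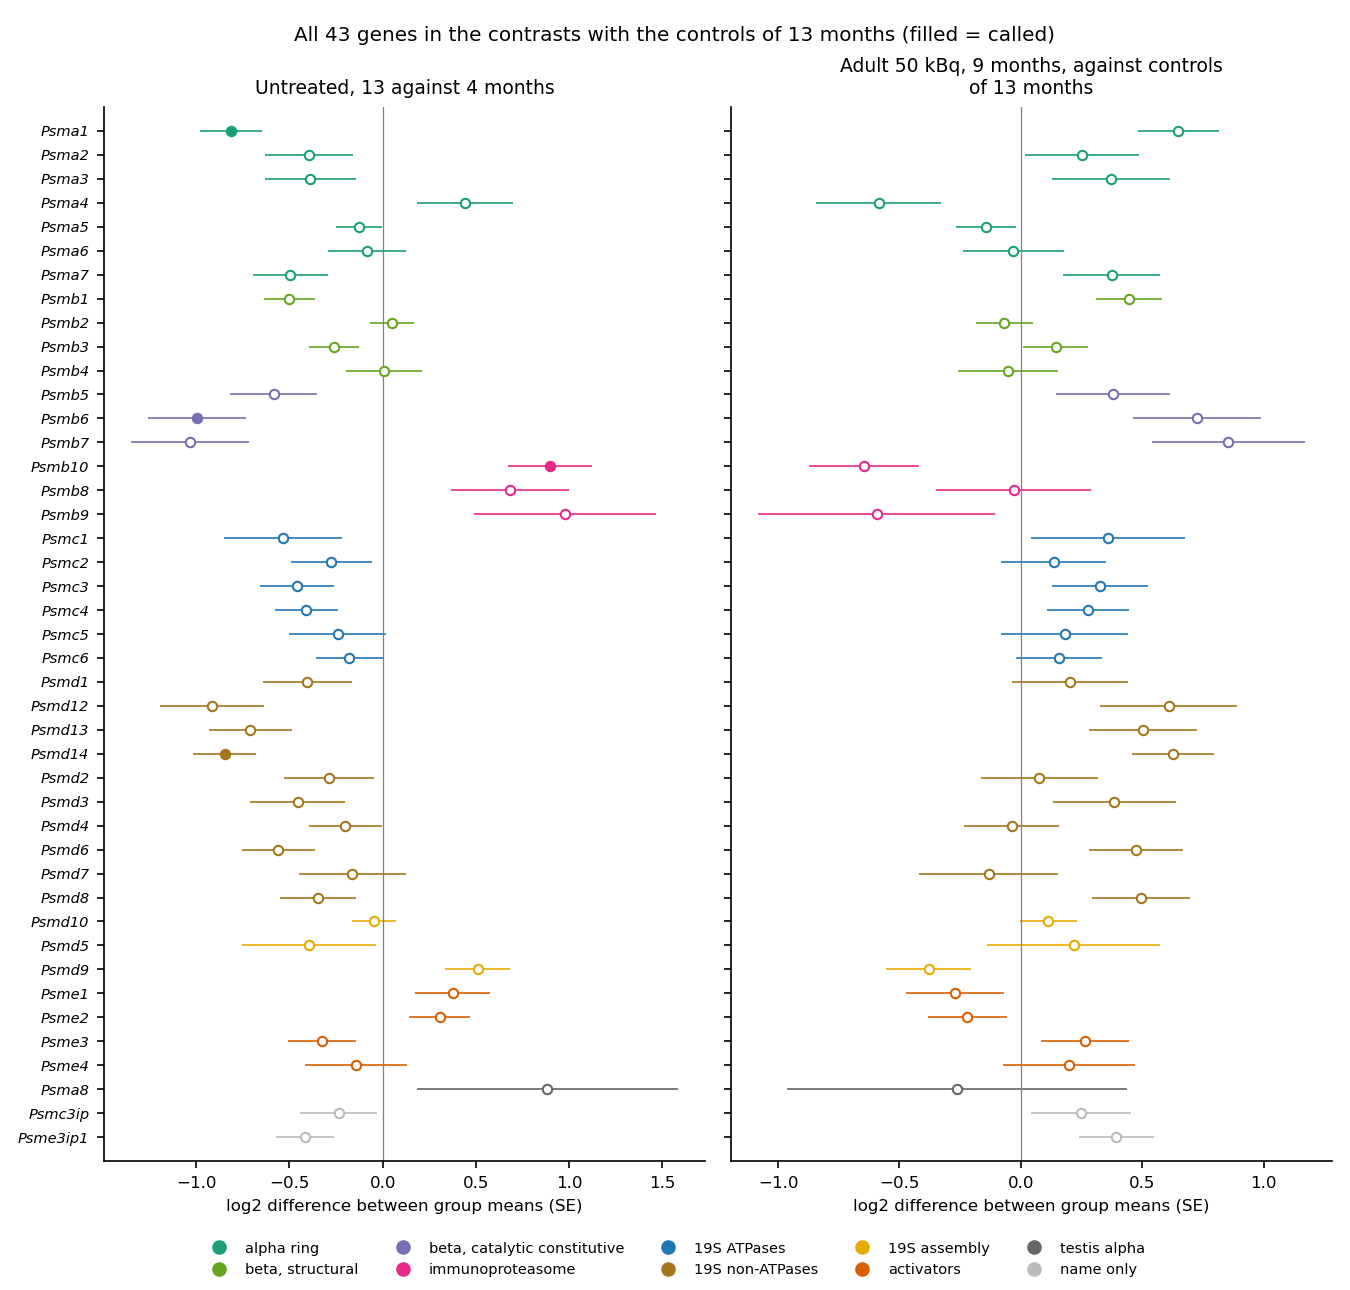
Log2 difference between group means with its SE for all 43 genes, coloured by class, in the controls of 13 against 4 months (left) and in adult rats 9 months after 50 kBq against the controls of 13 months (right), which share the controls of 13 months. Filled points had a fold change above 1.5 at an adjusted p below 0.01, and these are Psma1, Psmb6, Psmb10 and Psmd14 on the left.

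Set against the subunit whose place each takes, the change of Psmb9 exceeded that of Psmb6 by 1.97 log2 units (pooled SD 0.77) and the change of Psmb10 exceeded that of Psmb7 by 1.93 (pooled SD 0.63), with no overlap between the 3 and 4 arrays in either difference. For Psmb8 and Psmb5 the difference was 1.27 (pooled SD 0.70) and the arrays overlapped. Over the classes, the mean change of the immunoproteasome genes exceeded that of the constitutive 20S genes by 1.22 (pooled SD 0.55).

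Other tissue moved with this comparison. The mean of the skeletal muscle genes, of which 10 of 11 had a probe, was 3.54, 3.59 and 4.31 in the controls of 13 months and 5.84 to 6.92 in those of 4 months. The 12 thyrocyte genes had a mean of 1.75 to 2.11 against -0.31 to 1.72, and the 12 lymphocyte genes a mean of -6.37 to -5.48 against -6.59 to -5.75. None of the 10 muscle genes was called, with log2 changes of -5.30 to -1.19, and none of 6 C cell genes, with 1.58 to 4.48. With the muscle mean as a covariate, a setting added after the data were seen, limma called 0 of the 43 genes between control ages, with log2 changes of -0.66 for Psmd14, -0.81 for Psma1, -0.67 for Psmb6 and 0.80 for Psmb10 (adjusted p between 0.0138 and 0.0831). Over all probes and the 3 comparisons of control ages, 69 of 75513 tests were called with the covariate and 1306 of 75852 without it. On 2 other arrays with a muscle mean near that of the controls of 13 months, Psmb6 was at 1.74 and 1.76, Psmb7 at 1.30 and 1.77 and Psmb10 at 2.92 and 2.59, in replicate 4 at 500 kBq (muscle mean 4.22) and replicate 1 of the controls of 7 months (4.65). Within the first scan date (2 arrays against 2) and the second (1 against 2), the log2 change was -0.99 and -0.94 for Psmb6, -0.72 and -0.99 for Psma1, -0.76 and -1.02 for Psmd14, and 0.96 and 0.98 for Psmb10. The arrays of the older rats were also dimmer. Before scaling, the 75th percentile of the signal was 1412, 1333 and 1441, against 1738 to 3234 in the controls of 4 months. Only replicates 2 and 3 of the young rats 3 months after 50 kBq were dimmer still, and the part of this difference was not tested. Replicates 1 and 2 of the controls of 13 months lay close together in Acta1 (2.99 and 2.99) and in the C cell mean (1.25 and 1.23). Replicate 3 was at 3.56 and 3.20. In the mean of squamous epithelium genes replicates 1 and 2 were at -5.51 and -4.89, and replicate 3 at -4.86. Whether these samples vary as independently as others was not tested. The calls rested on few rats. None remained without replicate 1 or 4 of the controls of 4 months or without replicate 1 or 2 of those of 13 months. In most other fits with 1 array left out, 3 of the 4 remained, also where the array was of neither group. With 46 arrays 7 genes were called, a smaller share than the 22% of all probes. Psmb7, Psmd12 and Psmd13 then joined the 4 named above.

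No gene passed the test in the middle ages. In the controls of 7 against 4 months limma called 0 of the 43 genes (0.00396% of all probes), with 1 at an unadjusted p below 0.05 (7.63% of all probes) and a median log2 change of 0.08. These values rest on the low-thyroglobulin array, 1 of the 3 at 7 months. With 46 arrays the median turned to -0.11 with 12 genes above 0 in place of 35, the constitutive 20S median went from 0.06 to -0.18, the inducible minus constitutive difference from 0.11 to 0.75, and 3 genes had an unadjusted p below 0.05 (13.6% of all probes). In the controls of 10 against 4 months it called 0 (0.0119% of all probes), with 0 at an unadjusted p below 0.05 (3.64%) and a median of 0.04. At 7 months Psme3 and Psme3ip1 lay above the range of 4 months (4.73% of all probes above, 1.44% below, where no member lay below, and with 46 arrays Psmb2 lay below it, as did 3.66% of all probes). At 10 months no member lay outside that range (1.81% of all probes above and 1.3% below). The inducible subunits at 10 months gave log2 changes of 0.49 for Psmb8 (SE 0.29), 0.27 for Psmb9 (SE 0.45) and 0.20 for Psmb10 (SE 0.21).

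In adult rats 9 months after 50 kBq, all 6 ATPases, the 10 non-ATPases other than Psmd4 and Psmd7, and 9 of the 14 constitutive 20S genes had a log2 change above 0 against the controls of 13 months, the same control arrays as above, while Psmb9 and Psmb10 had one below 0. The median log2 change was 0.31 over the 14 constitutive 20S genes, 0.23 over the ATPases, 0.43 over the non-ATPases and 0.20 over the 43 genes, against -0.14 over all probes. The constitutive 20S median was 0.15 with slide or scan date as a block. With 49 arrays limma called 0 of the 43 genes (0.558% of all probes), 3 had an adjusted p below 0.05 (Psma1, Psmd14 and Psmb1, against 4.78% of all probes), and 13 had an unadjusted p below 0.05 (21.9% of all probes). With 46 arrays 3 were called (8.99% of all probes), of which Psma1 and Psmd14 rose and Psma4, a core alpha subunit, fell by 0.59 on the log2 scale (SE 0.15, limma adjusted p = 0.00478), at 2.71, 2.39, 2.83 and 2.72 against 3.54, 3.50 and 2.71. An adjusted p below 0.05 was then found for 11 genes (22.3% of all probes) and an unadjusted one for 21 (34.9%). Of the 43 genes, 11 lay above the range of the controls (9.78% of all probes) and Psmb10 and Psmd9 below it (16.4% of all probes).

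Psma1 was at 2.71, 2.76, 2.68 and 2.59 in the exposed adults and at 1.88, 1.89 and 2.34 in the controls of 13 months. Every exposed rat lay above every control (log2 change 0.65, SE 0.17, limma adjusted p = 0.0240 with 49 arrays and 0.000364 with 46, exact permutation p = 0.0286). Psmd14 was at 0.02, -0.01, -0.42 and -0.16 against -0.74, -0.94 and -0.62 (log2 change 0.63, SE 0.17, limma adjusted p = 0.0297 with 49 arrays and 0.00221 with 46). Psmb6 was at 2.25, 2.38, 1.55 and 2.20 against 1.28, 1.496 and 1.33 (log2 change 0.73, SE 0.26, limma adjusted p = 0.0929), and replicate 3 was close to the controls. Psmb7 was at 2.20, 1.96, 1.59 and 2.13 against 1.12, 1.19 and 1.04 (log2 change 0.85, SE 0.31, limma adjusted p = 0.101), again with replicate 3 the lowest of the exposed rats. Psmb10 was at 2.23, 2.45, 2.41 and 2.40, just below the lowest control at 2.50 (log2 change -0.65, SE 0.23, limma adjusted p = 0.0822). Psmb9 overlapped with the controls, with a log2 change of -0.59 (SE 0.49, limma adjusted p = 0.525), as did Psmb8 with -0.03 (SE 0.32, limma adjusted p = 0.974).

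The change of Psmb10 minus that of Psmb7 was -1.4997 (pooled SD 0.36) and that of Psmb9 minus Psmb6 was -1.32 (pooled SD 0.50), both with no overlap. Psmb8 minus Psmb5 gave -0.41 (pooled SD 0.58), with overlap. The exposed adults had muscle means of 6.61, 6.93, -2.25 and 6.81 and thyrocyte means of 0.84 to 1.47, below the 1.75 to 2.11 of the controls. Replicate 3, with almost no muscle signal, had the lowest constitutive 20S level of its group, at -0.26 against -0.03 to 0.06 in the others, and the controls lay at -0.42 to -0.32. On the first scan date, the only one with both groups (2 arrays against 2), the log2 change was 0.58 for Psma1, 0.48 for Psmd14, 0.59 for Psmb6, 0.82 for Psmb7 and -0.56 for Psmb10. The exposed adults had brighter arrays than the controls, with a 75th percentile of 2426 to 3580 before scaling.

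The 4 activities were compared in young rats 9 months after injection, against the controls of 10 months. Limma called 0 of the 43 genes at 0.5 kBq (0% of all probes), 0 at 5 kBq (0.0119%), 0 at 50 kBq (0.0119%) and 0 at 500 kBq (0%). An unadjusted p below 0.05 was found for 0 genes at 0.5 kBq (0.929% of all probes), 0 at 5 kBq (1.83%), 0 at 50 kBq (1.42%) and 1, Psmd10, at 500 kBq (1.63%). With 46 arrays the 0.5 kBq group had 0 such genes (2.48%), the 5 kBq group 5 (6.59%), the 50 kBq group 1 (4.71%) and the 500 kBq group 2 (5.21%). The slope on log10 of the activity was taken over the 4 injected groups, without the controls. The fold threshold then applied to the change per unit of log10 activity. For this slope limma called 0 of the 43 genes (0%), with 0 at an unadjusted p below 0.05 (1.24%). The slopes lay between -0.14 and 0.08 log2 units per unit of log10 activity.

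At 5 kBq the 14 constitutive 20S genes all had a log2 change below 0 (median -0.20, or -0.0594 with quantile normalization), the 6 ATPases had a median of -0.25 and the 10 non-ATPases one of -0.24, against -0.02 over all probes. Of the 43 genes, 12 lay below the range of the controls, where 6.81% of all probes did, and Psmb9 lay above it, where 8.55% did. The 12 were Psma1, Psma5, Psma6, Psmb2, Psmb3, Psmb6, Psmc1, Psmc2, Psmc6, Psmd1, Psmd12 and Psmd14. Psmb9 was at 1.26, 1.65 and 1.04 against 0.87, 0.74, 1.01 and 0.97 (log2 change 0.42, SE 0.49, limma adjusted p = 1.00, exact permutation p = 0.0286). The exposed rats lay just above the controls. Psmb6 was at 1.98, 2.02 and 2.29 against 2.47, 2.51, 2.35 and 2.32, and Psmd12 was at 2.94, 3.00 and 3.35 against 3.53, 3.45, 3.50 and 3.44 (log2 change -0.38, SE 0.28). Psmd1, the large scaffold of the 19S base, gave -0.40 (SE 0.24). The change of Psmb9 exceeded that of Psmb6 by 0.74 (pooled SD 0.32) and that of Psmb8 exceeded Psmb5 by 0.59 (pooled SD 0.31), neither with overlap. On the first scan date (1 array against 3), the log2 change was 0.79 for Psmb9, -0.42 for Psmb6, 0.66 for Psmb8 and -0.41 for Psmb5. On the third date (1 against 1), these values were 0.04, -0.06, 0.29 and 0.04. Replicate 1 at 5 kBq was scanned on the second date, which held no control of 10 months. In this comparison the muscle mean differed by -0.54 (pooled SD 0.32) with overlap and the thyrocyte mean by 0.55 (pooled SD 0.23) without, and their part in the result was not tested.

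At 50 kBq, 5 genes lay below the range of the controls (Psma5, Psma7, Psmb2, Psmd12 and Psmd14, where 1.25% of all probes did) and none above it (2.73%). Psmd12 was at 3.44, 2.81, 3.32 and 3.28 (log2 change -0.27, SE 0.26) and Psmd14 at -0.07, -0.19, 0.03 and 0.03 against 0.33, 0.12, 0.07 and 0.17 (log2 change -0.22, SE 0.16). Psmb9 had its lowest value of the series here, at -2.45 in replicate 1 beside 0.88, 0.92 and 0.58 in the other rats, and its log2 change moved from -0.92 to -0.10 without that array. At 500 kBq only Psmd10, the assembly factor also known as gankyrin, lay above the range of the controls, at 0.74, 0.66, 0.93 and 0.92 against 0.58, 0.38, 0.57 and 0.64 (log2 change 0.27, SE 0.11, limma adjusted p = 1.00), and none lay below it (2.33% of all probes above and 0.586% below). Replicates 1, 3 and 4 at 500 kBq were scanned on the second date, which held no control of 10 months. Of the other activities, only replicate 1 at 5 kBq was scanned on that date. Activity and scan date are therefore largely confounded at 500 kBq, which also enters the slope. At 0.5 kBq no gene lay outside the range of the controls (0.57% of all probes above and 0.483% below). The inducible subunits minus the constitutive 20S genes changed by 0.17 at 0.5 kBq (pooled SD 0.41), 0.52 at 5 kBq (pooled SD 0.19, no overlap), -0.40 at 50 kBq (pooled SD 0.48) and 0.22 at 500 kBq (pooled SD 0.45), which gave no order with the activity. Single arrays set 3 of these values, since the difference was -0.08 without replicate 1 at 50 kBq, -0.07 without replicate 4 at 500 kBq and -0.04 without replicate 2 at 0.5 kBq.

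**Figure D4:**
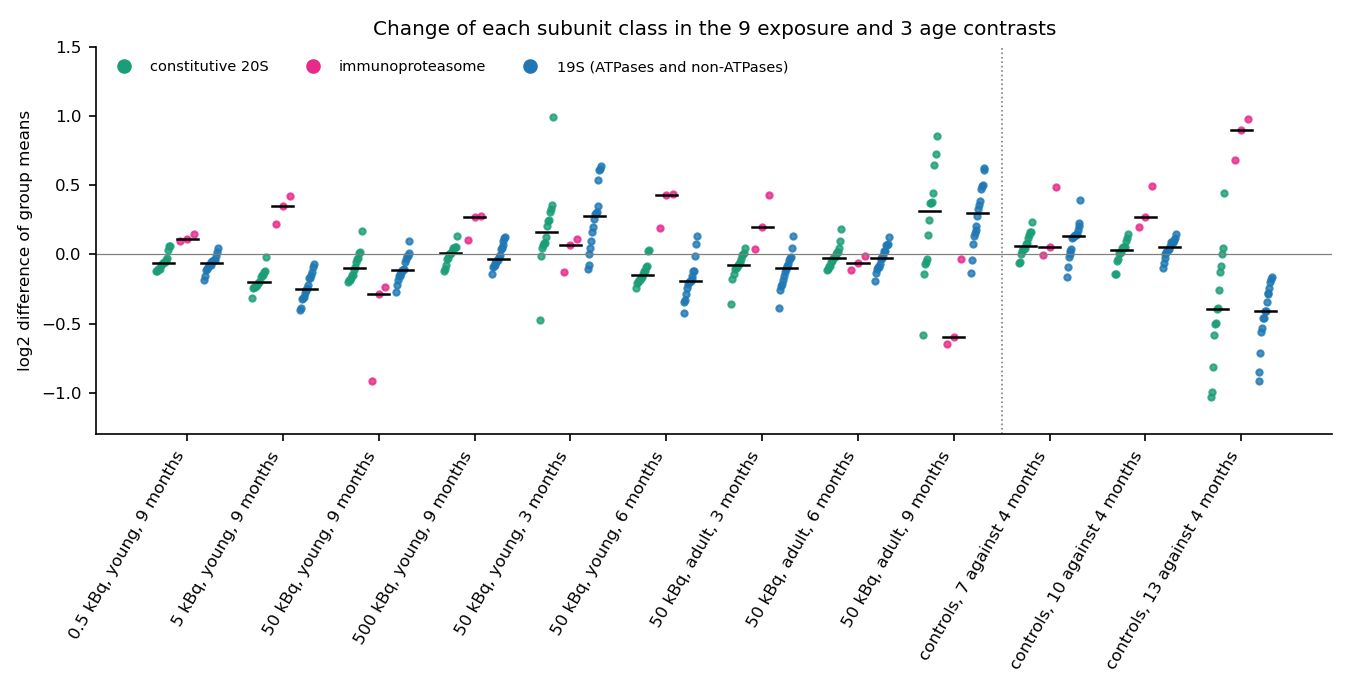
Log2 difference of group means for each gene of the constitutive 20S core, the immunoproteasome and the 19S particle (points) with the class median (bars), in the 9 comparisons with controls of the same age (left of the dotted line) and the 3 between control ages. The classes part most in the controls of 13 against 4 months, where the immunoproteasome genes lie between 0.68 and 0.98.

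At 3 and 6 months after 50 kBq, limma again called 0 of the 43 genes in young rats (0.0119% of all probes after 3 months and 0% after 6 months) and 0 in adult rats (0% after both times). In young rats after 3 months, an adjusted p below 0.05 was found for Psma4, Psmc2 and Psmd4 (17.9% of all probes) and an unadjusted p below 0.05 for 8 genes (37.9%). This group holds 2 of the 3 arrays that stood apart, and with 46 arrays 0 genes had an adjusted p below 0.05 (0% of all probes) and 7 an unadjusted one (10.2%). Psma4 was at 3.07, 4.92, 4.30 and 2.90 there, with the 2 high values on those arrays, against 2.76, 2.81, 2.76 and 2.89 in the controls of 4 months (log2 change 0.99, SE 0.24, limma adjusted p = 0.0220, and 0.18, SE 0.17, limma adjusted p = 0.651 with 46 arrays). It alone lay above the range of the controls (3.97% of all probes) and none lay below (1.44%), whereas 10 genes lay above it with 46 arrays (9% of all probes above and 8.08% below), which leaves 2 exposed rats.

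After 6 months in young rats, 2 genes had an unadjusted p below 0.05 (6.56% of all probes). No scan date held both these rats and their controls, so exposure and scan date cannot be told apart in this comparison. Psmc3ip, Psmd9 and Psme2 lay below the range of the controls of 7 months (6.15% of all probes) and none above (1.67%). Psmd9, an assembly chaperone of the 19S base, was at 0.96, 0.67, 0.92 and 0.89 against 1.38, 1.06 and 1.04 (log2 change -0.30, SE 0.17, limma adjusted p = 0.814). Psmc3ip, which acts in meiotic recombination, was at -1.59, -1.54, -1.74 and -1.48 against -1.21, -0.81 and -1.46 (log2 change -0.43, SE 0.21, limma adjusted p = 0.751). In adult rats after 3 months, 2 genes had an unadjusted p below 0.05 (4.74%), 3 lay below the same controls (Psmc3ip, Psme3 and Psme3ip1, where 7.22% of all probes did) and none above (0.431%). Psme3ip1 was at -0.69, -0.72, -0.64 and -0.76 against -0.30, -0.07 and -0.52 (log2 change -0.41, SE 0.15, limma adjusted p = 0.997). In both comparisons the controls of 7 months include the array with low thyroglobulin. Without the arrays that stood apart, 2 genes (Psma1 and Psmd14) lay above the controls in the young rats (6.63% of all probes) and 8 in the adults (3.66%), and 0 genes (10.5%) and 2 genes (8.18%) had an unadjusted p below 0.05. The constitutive 20S median then turned from -0.15 to 0.17 in the young rats and from -0.08 to 0.19 in the adults, and the inducible minus constitutive difference from 0.49 to -0.16 and from 0.30 to -0.34. In adult rats after 6 months, 0 genes had an unadjusted p below 0.05 (0.791%), none lay above the controls (2.6%) and only Psmc6, an ATPase, lay below them (1.46%), at -0.52, -0.48, -0.58 and -0.39 against -0.20, -0.35, -0.36 and -0.30 (log2 change -0.19, SE 0.16).

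Whether the effect of 50 kBq differed between injection at 5 and at 17 weeks was tested by interaction contrasts. Limma called 0 of the 43 genes after 3 months (0% of all probes), 0 after 6 months (0%) and 0 after 9 months (0%). An unadjusted p below 0.05 was found for 4 genes after 3 months (29.6% of all probes), 1 after 6 months (3.94%) and 7 after 9 months (13.4%). With 46 arrays these were 1 gene (6.82%), 2 genes (9.15%) and 12 genes (26.9%). The young arm after 6 months shared no scan date with its controls. With 46 arrays, 2 were called after 9 months (2.25% of all probes), namely Psma1 with a difference of -0.80 (SE 0.17, limma adjusted p = 0.00392) and Psmd14 with -0.85 (SE 0.19, limma adjusted p = 0.00703). The adult arm of this contrast rests on the controls of 13 months, whose values of both genes are the lowest of the series.

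Genes that work with the proteasome gave a mixed picture in the controls of 13 against 4 months. Of 3 measured chaperones of 20S assembly 0 were called, of 4 proteins bound to the 19S particle 1 and of 3 regulators 0. Usp14, the deubiquitinase bound to the 19S base, fell by 0.67 (SE 0.17, limma adjusted p = 0.00765). The median log2 change was -0.09, -0.43 and -0.51 over these 3 lists, against 0.19 over all probes. Of 9 measured genes of MHC class I processing 1 was called, the chaperone Calr, which rose by 1.90 (SE 0.47, limma adjusted p = 0.0071), with a list median of 1.05. Of 17 interferon-induced genes 0 were called, with a median of 0.13. With 46 arrays Psmg2, a chaperone of 20S assembly, was called lower (log2 change -0.73, SE 0.12) and Canx, Irf1 and Mx2 were called higher.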

How the data were processed

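Each array held Cy3-labelled RNA from thyroid tissue of 1 rat (Agilent Sureprint G3 Rat GE 8x60K). The authors deposited Agilent Feature Extraction files, whose processed signal is an intensity from which the background has been taken off and which is unscaled between arrays, per the file headers. A table of the authors' own fold changes was not used. Control and outlier spots were left out, log2 intensities were reduced by the 75th percentile of the array, and spots of a probe were averaged.

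For the 25284 probes well above background on 3 arrays or more, limma (version 3.58.1, R 4.3.3, data.table version 1.17.8) gave 1 mean for each of 13 groups and 16 contrasts, with Benjamini-Hochberg adjustment in each. Genes with a fold change above 1.5 at an adjusted p below 0.01 were called. Single genes were also compared by two-sided exact permutation tests. Correlations, motif searches and plots used scipy 1.17.1, numpy 2.4.6, pandas 2.3.3 and matplotlib 3.10.9 under Python 3.11.15. The steps were tested on simulated data. Simulated log2 changes of 1 and 2 were called by limma in 16% and 55% of cases for adult rats after 9 months. For controls of 13 against 4 months these shares were 18% and 52%. The changed probes were drawn from all tested probes, whose median SD within groups was 0.53 with 49 arrays. Over the 43 genes that median was 0.26, and the shares were not measured for these less variable genes. A count of 0 called genes does not show that no gene changed. The number of arrays limits the precision.

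Groups came from the labels. The members and gene lists were chosen with earlier results of these data known. The naming rule took Psmb5 to Psmb10, Psme1, Psme2, every gene called in a contrast, the 2 largest changes without overlap in each exposure comparison, the 3 most and 3 least variable genes and those not detected on all arrays. Any other gene given with values was chosen after they were seen. Alternatives were quantile, median and normexp processing (offset 50, on median spot signals), probes averaged, other filters, blocks for replicate number, slide or scan date, array weights, looser thresholds, other sets of arrays, each array left out and, added after the data were seen, 46 arrays and a muscle covariate. The list of ubiquitin genes is not reported here.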

Additional observations from a re-analysis of the deposited data

Results flagged for a closer look

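The single arrays below lay far from the rest of their group of 4, by Dixon's test, in 15 of 240 groups tested over 24 measures. Chance flags about 1 group in 20, and 2 of the 15 are on an array that stood apart.

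In the adult rats 9 months after 50 kBq, replicate 3 had Psmb5 at 2.87 (others 3.49 to 3.56), Psmd1 at 3.75 (others 4.39 to 4.47) and a difference of inducible minus constitutive 20S genes of 0.57 (others -0.03 to 0.03). The muscle mean of this rat was -2.25, where the others had 6.61 to 6.93, and its part in these values was not tested. In the young rats 9 months after 50 kBq, replicate 1 had Psmb9 at -2.45 (others 0.58 to 0.92), while its Psmb10 was at 2.08 (others 1.77 to 2.23). At 500 kBq, replicate 4 had Psmd12 at 2.66 (others 3.52 to 3.66) and a muscle mean of 4.22 (others 6.80 to 7.24).

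In the adult rats after 3 months, replicate 1 had Psmb5 at 3.38 (others 3.55 to 3.56) and Psmd12 at 3.12 (others 3.42 to 3.45), and replicate 3 had Psme2 at 3.49 (others 3.64 to 3.66). After 6 months, replicate 4 of the adults had Psmb9 at 0.474 (others 1.00 to 1.07) and replicate 1 had Psmb3 at 3.25 (others 3.34 to 3.35). In the young rats after 6 months, replicate 3 had Psme3ip1 at -0.983 (others -0.58 to -0.49). In the controls of 10 months, replicate 1 had Psma1 at 3.07 (others 2.85) and a constitutive 20S median deviation of 0.145 (others 0.06 to 0.07). In the young rats after 3 months, replicate 2, the array with few spots above background, had Psmb7 at 1.36 (others 2.70 to 2.81) and Psmb3 at 2.95 (others 3.46 to 3.55).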

How the results depend on the processing

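Proteasome genes called between control ages numbered 4. They numbered 2 with the median of the array subtracted, with no filter on dim probes and with the replicate block, 1 with normexp, 16 with array weights, 7 at an adjusted p under 0.05 with the fold threshold and 10 without it, 7 without the 3 arrays that stood apart and 0 with the muscle covariate. Leaving out each array gave 0 to 7, the 7 without replicate 2 of the young rats 3 months after 50 kBq. Against controls of the same age, 0 genes were called. There were 9 with array weights, 4 and 6 at the looser thresholds, 3 without the 3 arrays, and 0 to 4 with each array left out, the 4 without replicate 1 of the young rats after 3 months. For young against adult effects 0 became 11 with array weights, 2 without the 3 arrays and 0 to 1 with each array left out. For the slope it was 0 throughout.

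The median change of the constitutive 20S genes moved at 5 kBq to -0.0594 (quantile), in adult rats after 6 months to -0.0763 (quantile), -0.11 (median subtracted) and 0.0242 (slide block), and after 9 months to 0.15 (slide or scan block) and 0.45 (array weights), or 0.20 to 0.38 with each array left out. In young rats after 6 months it was 0.17 without the 3 arrays and -0.30 to 0.17 with each array left out, without replicate 1 or 2 of the controls of 7 months. The immunoproteasome relative to the constitutive genes moved to -1.08 in adult rats after 9 months with Psmb5, Psmb6 and Psmb7 as the reference, and to -0.41 after 6 months with the slide block. Without the 3 arrays it turned from 0.49 to -0.16 in young rats after 6 months and from 0.30 to -0.34 in adult rats after 3 months, where the constitutive median turned from -0.08 to 0.19, within the spread between arrays. The causes were not tested.

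The replicate numbers did not pair the samples, since 10 of 32 same-numbered pairs had correlated deviations above 0.1 (-0.52 to 0.49), and the replicate block left the other counts as they were.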
